A study of Mus musculus with 27 samples.

Results

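Besides *Setdb1*, a set of enzymes writes and removes methyl groups on lysine 9 of histone H3 (H3K9), and the RNA levels of 9 of these genes are described here in a mouse embryonic fibroblast line (iMEFs, immortalized) that carries a conditional *Setdb1* allele (cKO). The 9 genes were listed by name: 5 methyltransferases (*Suv39h1*, *Suv39h2*, *Ehmt1*, *Ehmt2*, *Setdb2*) and 4 demethylases (*Kdm3a*, *Kdm4a*, *Kdm4b*, *Kdm4c*). They were taken from 19593, 21511 and 21669 genes with a value in the 3 experiments of the series, and all 9 were tested in each. The series holds 27 RNA-seq libraries, all from 1 recloned *Setdb1* cKO iMEF line, in which 4-hydroxytamoxifen (4OHT), given for the first 4 days, triggers the deletion of *Setdb1*. In the total RNA experiment, rRNA-depleted libraries were made from untreated cells, from cells at day 5 after 4OHT and from long-term KO cells, which the labels place more than 2 weeks after 4OHT (n = 3 each). In the siRNA experiment, cells received a control siRNA (siCtrl) or an siRNA against the DNA methyltransferase *Dnmt1* (siDnmt1), each without 4OHT or at day 6 after 4OHT (n = 2 each). In the inhibitor experiment, cells were untreated, given the histone deacetylase inhibitor trichostatin A (TSA, 150 nM, 24 h), given the MEK inhibitor PD0325901 (1 µM, last 24 h; the labels also spell it PD0325091), harvested at day 6 after 4OHT, or given both 4OHT and PD0325901 (n = 2 each). Nothing in the labels says that replicates were separate cultures, so p-values measure only the spread between these samples, which may be technical.

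H3K9 methylation marks silent chromatin, where trimethylated H3K9 is bound by HP1 proteins. *Suv39h1* and *Suv39h2* encode the paralogous enzymes that trimethylate H3K9 at pericentromeric heterochromatin. *Ehmt1* (GLP) and *Ehmt2* (G9a) encode the subunits of a heteromeric enzyme that mono- and dimethylates H3K9 in euchromatin. *Setdb2* encodes a relative of Setdb1 and is known as an interferon-inducible gene. On the opposing side, *Kdm3a* encodes a demethylase of mono- and dimethylated H3K9 that is induced by hypoxia, and *Kdm4a*, *Kdm4b* and *Kdm4c* encode JmjC demethylases of trimethylated H3K9. In this line Setdb1 is the H3K9 methyltransferase removed by 4OHT.

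The deposited values are FPKM (fragments per kilobase of transcript, scaled to the mapped fragments of the library), a level per length that allows genes to be compared. A gene was said to pass, to rise or to fall when its adjusted p was under 0.05 (limma on log2(FPKM + 0.1), Benjamini-Hochberg adjustment over all genes tested). On this scale the change of low genes is understated. For a single gene an exact permutation test cannot go below 0.1 at 3 against 3, or below 0.333 at 2 against 2, so tests rest on the fit across all genes.

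Some libraries and loci need naming before the results. Fewer cells of a type and less RNA per cell cannot be told apart in bulk samples. Of 10 fibroblast markers, all with a value (8 to 10 by experiment) had at least 1 FPKM in every group, whereas the summed level of 4 endothelial markers was at most 2.25 FPKM. Other lists went higher: the epithelial sum reached 86.6 FPKM with 4OHT + siDnmt1 and the haematopoietic sum 68.0 with TSA, as described further on. *Dnmt1* was 80.5 and 73.4 FPKM in siCtrl, 12.2 and 10.6 in siDnmt1, 78.7 and 78.3 in 4OHT + siCtrl, and 12.2 and 11.4 in 4OHT + siDnmt1. *Setdb1*, as a whole-gene value, was 5.95, 5.53 and 5.16 FPKM in the untreated total RNA libraries, 4.16, 4.20 and 6.52 at day 5, and 7.24, 7.32 and 6.96 in long-term KO. It did not fall in long-term KO, and a value over the whole gene may also count exons that the deletion leaves, so it was not taken as a check of the labels. In the siRNA experiment *Setdb1* was 7.40 and 6.48 FPKM with siCtrl and 7.58 and 5.00 with 4OHT + siCtrl, which overlapped. In the inhibitor experiment *Setdb1* was 8.76 and 10.1 FPKM in untreated cells and 5.34 and 5.56 with PD0325901 alone. It was listed at 0 in 4OHT day 6 replicate 1 and in both 4OHT + PD0325901 libraries, but was 5.30 FPKM in 4OHT day 6 replicate 2. The library labelled 4OHT + siCtrl replicate 2 stood apart. *Irf7*, an interferon-induced transcription factor gene, was 14.6 FPKM in it and 279 in replicate 1, against 21.2 and 21.5 in siCtrl. Differences of members that use 4OHT + siCtrl are therefore also given without it, where the fit has 1 library in that group, assumed to vary like the others. For PD0325901 replicate 2, 1 header line of the deposited file names 4OHT as well, while the other header line and the labels do not. It was kept as labelled, and its *Irf7* was 4.02 FPKM, beside 4.75 in replicate 1 and 266 and 321 with 4OHT + PD0325901.

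The loci of the 9 genes lie, in mm9, at chrX:7638297-7651886 (*Suv39h1*), chr2:3373087-3392258 (*Suv39h2*), chr2:24646289-24775129 (*Ehmt1*), chr17:35035437-35050995 (*Ehmt2*), chr14:60020848-60059714 (*Setdb2*), chr6:71538964-71582911 (*Kdm3a*), chr4:117809609-117852648 (*Kdm4a*), chr17:56465473-56542296 (*Kdm4b*) and chr4:73888401-74051768 (*Kdm4c*). Loci were assembled in each library, and 3 of the members share sequence space with a neighbour. The *Setdb2* locus was joined with *Phf11c* in all 9 total RNA libraries, and in 6 of the other 18 libraries. The *Suv39h2* locus ran into its overlapping neighbour *Dclre1c* in untreated replicates 2 and 3 of total RNA, in untreated replicate 2 of the inhibitor experiment and in TSA replicate 2. The *Ehmt2* locus was joined with *Nelfe* in long-term KO replicate 3. The deposited 95% intervals, which cover counting error only, had a median half-width of 5.71% of the member's FPKM in total RNA, 7.52% in the siRNA experiment and 9.23% in the inhibitor experiment. One value, *Kdm3a* in untreated replicate 1 of the inhibitor experiment, had no usable interval.

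The sequences just upstream of the start sites of *Suv39h1*, *Ehmt1*, *Kdm3a* and *Kdm4a* are shown. These members passed in long-term KO against untreated and with TSA, as described further on, and have windows without annotated exons. *Suv39h2* and *Ehmt2* passed in both as well, but their windows overlap annotated exons and are not printed. RefSeq promoter sequences (GRCm38.p6) were found for 8 of the 9 members. Each printed window of 250 bases ends at the most upstream start, was placed on mm9 by exact match, and holds no annotated exon there. The windows lie on the minus strand at chrX:7651887-7652136 (*Suv39h1*), chr2:24775130-24775379 (*Ehmt1*), chr6:71582912-71583161 (*Kdm3a*) and chr4:117852649-117852898 (*Kdm4a*). Capitals mark CCAAT boxes (CCAAT, or ATTGG on the other strand) and GC boxes (GGGCGG, or CCGCCC on the other strand).
Suv39h1: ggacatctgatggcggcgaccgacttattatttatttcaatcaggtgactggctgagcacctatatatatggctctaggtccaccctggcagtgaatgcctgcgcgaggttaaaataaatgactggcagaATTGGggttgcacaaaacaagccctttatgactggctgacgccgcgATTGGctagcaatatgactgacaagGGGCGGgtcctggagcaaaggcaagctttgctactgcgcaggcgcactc
Ehmt1: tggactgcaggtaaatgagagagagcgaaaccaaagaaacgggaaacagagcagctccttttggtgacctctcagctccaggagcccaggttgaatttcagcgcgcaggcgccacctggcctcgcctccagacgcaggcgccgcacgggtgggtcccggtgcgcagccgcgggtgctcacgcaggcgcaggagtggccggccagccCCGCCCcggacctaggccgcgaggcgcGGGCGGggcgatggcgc
Kdm3a: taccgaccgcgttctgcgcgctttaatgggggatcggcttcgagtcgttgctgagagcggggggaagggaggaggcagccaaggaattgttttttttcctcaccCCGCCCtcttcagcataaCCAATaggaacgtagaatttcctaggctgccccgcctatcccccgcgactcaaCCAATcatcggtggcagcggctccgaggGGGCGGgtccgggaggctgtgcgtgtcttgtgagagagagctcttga
Kdm4a: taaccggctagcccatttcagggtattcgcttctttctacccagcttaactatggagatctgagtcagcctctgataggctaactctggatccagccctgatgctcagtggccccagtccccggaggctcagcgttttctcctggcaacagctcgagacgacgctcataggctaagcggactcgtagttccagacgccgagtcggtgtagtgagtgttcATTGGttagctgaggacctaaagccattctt
A CCAAT box lay within the 250 bases of 4 of the 8 members (*Suv39h1*, *Setdb2*, *Kdm3a*, *Kdm4a*), and 33.8% of all 32851 promoters hold one. A GC box lay upstream of 5 of the 8 (*Suv39h1*, *Suv39h2*, *Ehmt1*, *Ehmt2*, *Kdm3a*), against 32.7% of all promoters. The core GAAANNGAAA of the interferon-stimulated response element, searched on both strands, was in none of the 8 windows, and 2.98% of all promoters hold it. These matches describe letters in the window and say nothing of binding.

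In untreated cells *Ehmt2*, *Suv39h1* and *Kdm4a* were the highest of the 9, in that order, in all 3 experiments. In total RNA their levels were 35.4 ± 1.40, 28.3 ± 1.30 and 25.6 ± 0.292 FPKM (SD, n = 3), and none of these neighbours overlapped. They lay at the 83.4th, 78.5th and 76.1st percentile of the tested genes. *Ehmt1* followed with 12.3 ± 0.272 FPKM and overlapped *Suv39h2* (10.5 ± 2.43). *Setdb2* (7.51 ± 0.316), *Kdm3a* (7.45 ± 0.118) and *Kdm4c* (7.42 ± 0.166) could not be told apart by their libraries, and *Kdm4b* was lowest at 6.15 ± 0.478 FPKM. With siCtrl the order of the top 4 was the same, and *Setdb2* was lowest (6.88 ± 0.544 FPKM, n = 2). In the inhibitor experiment *Ehmt2* (46.0 ± 5.14) and *Suv39h1* (43.1 ± 0.850) overlapped, *Kdm3a* ranked above *Ehmt1* (17.0 ± 0.486 against 13.2 ± 1.47 FPKM) and *Setdb2* was again lowest (7.25 ± 0.322). *Ehmt2* exceeded *Ehmt1* in every one of the 27 libraries, with a ratio between 2.18 and 4.67. *Suv39h1* exceeded *Suv39h2* in each as well, with a ratio between 2.37 and 12.7.

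**Figure D1:**
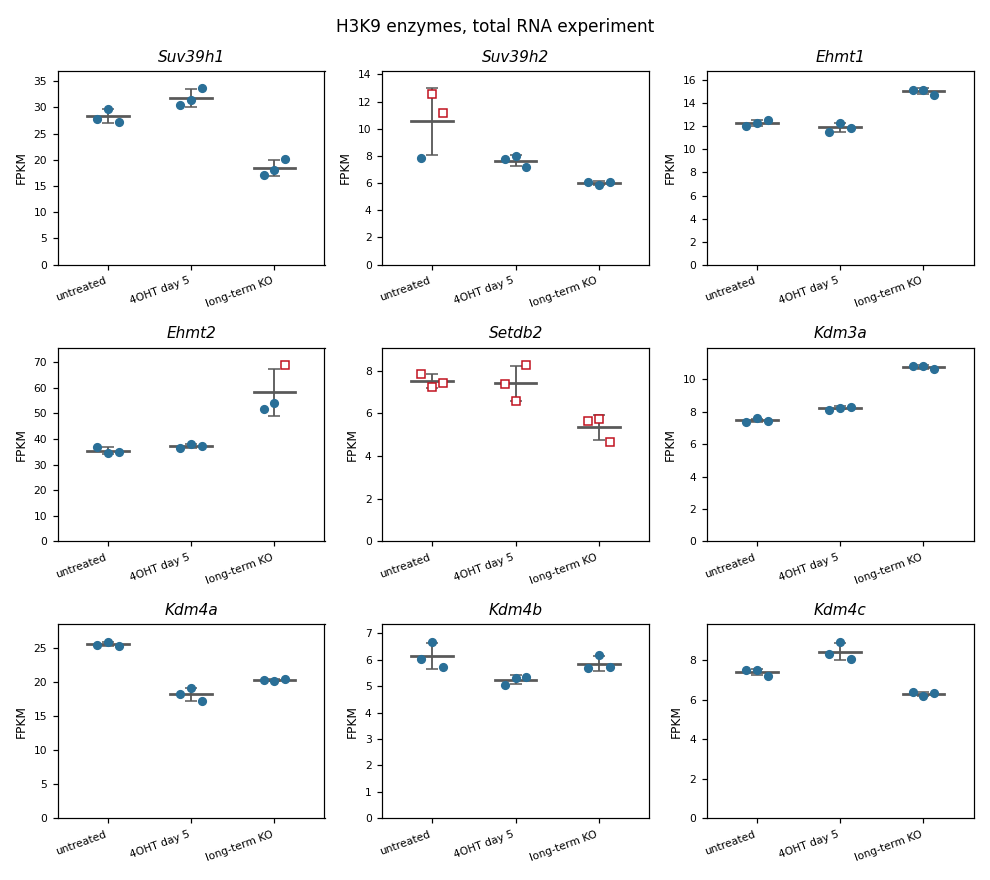
FPKM (y axis, from 0) of the 9 genes in untreated, 4OHT day 5 and long-term KO cells of the total RNA experiment (x axis). Points are libraries, the bar is the mean and the error bar the SD (n = 3); open red squares are loci joined with, or running into, a neighbouring gene. *Suv39h1* is lower and *Ehmt2* higher in every long-term KO library than in every other library, and *Kdm4a* is highest in untreated cells.

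The first comparison asked what deletion of *Setdb1* does within 5 days. At 4OHT day 5, 2 demethylase genes fell (*Kdm4a*, *Kdm4b*) and 2 rose (*Kdm3a*, *Kdm4c*), while none of the 5 methyltransferase genes passed. So 4 of the 9 passed, where 37.5% of the 8935 genes tested passed, and the members' median log2 difference was -0.03 against 0.00 for all genes. Of all genes, 19.1% passed as higher and 18.3% as lower. None of the members changed 2-fold, against 3.42% of all genes that passed with such a change. Groups did not overlap for 5 members, against 50.2% of all genes.

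*Kdm4a*, the most abundant of the KDM4 genes, was 25.4, 25.9 and 25.4 FPKM in untreated cells and 18.3, 19.2 and 17.3 at day 5. All day 5 libraries were lower than all untreated ones, a log2 difference of -0.48 (SE 0.04, adjusted p = 7.25e-05, limma). *Kdm4b* was 6.02, 6.67 and 5.74 FPKM in untreated cells and 5.06, 5.32 and 5.37 at day 5, a log2 difference of -0.22 (SE 0.06, adjusted p = 0.0283). The groups did not overlap, but the call was lost when any 1 of 5 of the 6 libraries was left out (untreated replicate 3 being the exception), with log2 differences between -0.24 and -0.16 and an adjusted p of up to 0.0846. *Kdm4c* went the other way, from 7.53, 7.51 and 7.23 FPKM to 8.34, 8.93 and 8.06 (log2 0.18, SE 0.04, adjusted p = 0.0139). The summed level of the 3 KDM4 genes was 38.3 to 40.1 FPKM in untreated cells and 30.7 to 33.4 at day 5, and the share of *Kdm4a* in it went from 64.6 to 66.2% down to 56.3 to 57.7%. *Kdm3a* was 7.36, 7.58 and 7.41 FPKM in untreated cells and 8.12, 8.24 and 8.31 at day 5, a small rise with no overlap (log2 0.14, SE 0.03, adjusted p = 0.00664).

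Among the methyltransferase genes, *Suv39h1* was 27.9, 29.8 and 27.3 FPKM in untreated cells and 30.4, 31.4 and 33.6 at day 5, without passing (log2 0.17, adjusted p = 0.0907). *Suv39h2* was 7.85, 12.6 and 11.2 FPKM in untreated cells, the last 2 values from loci that run into *Dclre1c*, and 7.79, 8.03 and 7.18 at day 5. Its log2 difference was -0.43 (adjusted p = 0.0626) with these libraries and -0.04 (adjusted p = 0.772) without them. *Ehmt1* (12.0, 12.3 and 12.6 against 11.5, 12.3 and 11.9 FPKM), *Ehmt2* (37.0, 34.3 and 34.9 against 36.5, 38.0 and 37.1) and the joined *Setdb2* locus (7.87, 7.26 and 7.41 against 7.37, 6.59 and 8.26) overlapped between the groups. In the same libraries *Irf7* was 0.411 to 0.530 FPKM in untreated cells and 16.3 to 19.2 at day 5.

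Long-term KO cells differed from untreated cells in most of the members, with both *Suv39h* genes lower and both *Ehmt* genes higher. Of the 9, 5 fell (*Suv39h1*, *Suv39h2*, *Setdb2*, *Kdm4a*, *Kdm4c*), 3 rose (*Ehmt1*, *Ehmt2*, *Kdm3a*) and *Kdm4b* did not pass. The 8 of 9 stand beside 68% of all genes that passed in this comparison, and the groups did not overlap for these 8 members, against 73.1% of all genes. The members' median log2 difference was -0.23, and that of all genes 0.07. Of all genes, 38.2% passed as higher and 29.8% as lower. None of the members changed 2-fold, while 14.5% of all genes passed with such a change.

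*Suv39h1* was 17.1, 18.1 and 20.1 FPKM in long-term KO, below all untreated and all day 5 libraries (log2 -0.62 against untreated, SE 0.07, adjusted p = 8.74e-05, limma; -0.79 against day 5, adjusted p = 2.36e-05). *Suv39h2* was 6.09, 5.86 and 6.12 FPKM, below every other total RNA library, with a log2 difference of -0.77 from untreated (SE 0.15, adjusted p = 0.00258). Without the untreated libraries whose locus runs into *Dclre1c*, it was -0.38 (adjusted p = 0.00761), with 1 untreated library left that is assumed to vary like the others. Against day 5 *Suv39h2* did not pass (log2 -0.34, adjusted p = 0.0845). Together the 2 *Suv39h* genes summed to 35.7 to 42.4 FPKM in untreated cells, 38.2 to 40.8 at day 5 and 23.2 to 26.2 in long-term KO.

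*Ehmt2* was 51.7, 54.1 and 68.8 FPKM in long-term KO, each above every untreated and day 5 library (log2 0.70 against untreated, SE 0.10, adjusted p = 0.00036). The highest value comes from the locus joined with *Nelfe*. Without that library the log2 difference was 0.58 (adjusted p = 4.3e-05). *Ehmt1*, which encodes its partner subunit, was 15.2, 15.2 and 14.7 FPKM, a rise of 0.29 on the log2 scale (SE 0.04, adjusted p = 0.000174) with no overlap. The 2 genes summed to 46.6 to 49.0 FPKM in untreated cells, 48.0 to 50.3 at day 5 and 66.9 to 83.5 in long-term KO. The joined *Setdb2* locus fell to 5.64, 5.75 and 4.67 FPKM (log2 -0.49, SE 0.10, limma adjusted p = 0.00346), with *Phf11c* included in every library. *Irf7* was 4.28 to 5.44 FPKM in these long-term KO libraries, against 0.411 to 0.530 in untreated cells.

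**Figure D2:**
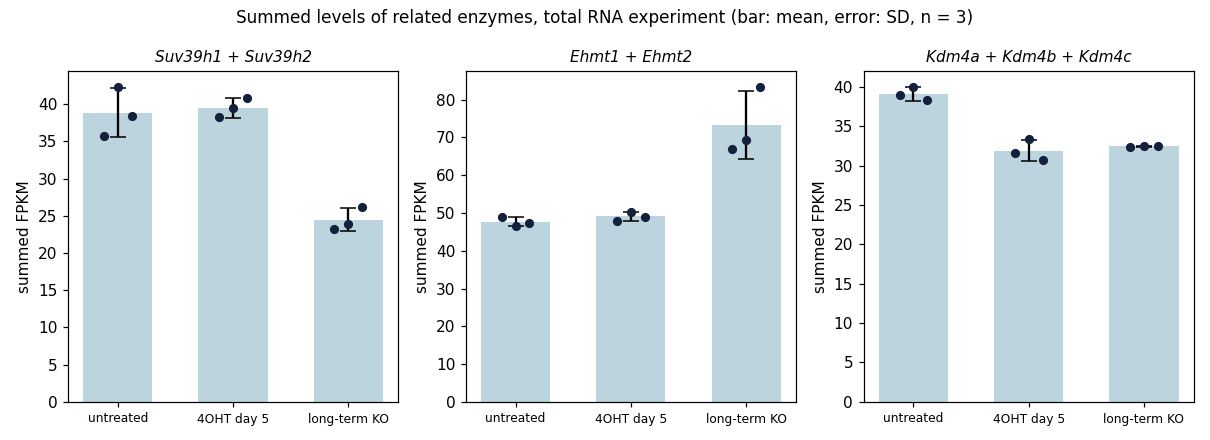
Summed FPKM (y axis) of *Suv39h1* + *Suv39h2*, *Ehmt1* + *Ehmt2* and *Kdm4a* + *Kdm4b* + *Kdm4c* in the 3 groups of the total RNA experiment (x axis). Points are libraries, bars the mean and error bars the SD (n = 3). In long-term KO the *Suv39h* sum lies between 23.2 and 26.2 and the *Ehmt* sum between 66.9 and 83.5, the highest of the latter with the locus joined to *Nelfe*.

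Of the demethylases, *Kdm3a* rose further, to 10.8, 10.8 and 10.6 FPKM in long-term KO. This was above both other groups, with log2 differences of 0.52 from untreated (SE 0.03, adjusted p = 1.83e-06) and 0.38 from day 5 (adjusted p = 1.12e-05). *Kdm4a* was 20.3, 20.1 and 20.5 FPKM, between the 2 other groups and apart from both (log2 -0.33 against untreated, adjusted p = 0.000152, and 0.15 against day 5, adjusted p = 0.00935). *Kdm4c*, which had risen at day 5, was 6.38, 6.20 and 6.36 FPKM, below both other groups (log2 -0.23 against untreated, adjusted p = 0.00209, and -0.41 against day 5, adjusted p = 8.09e-05). *Kdm4b* was 5.68, 6.18 and 5.71 FPKM and overlapped untreated cells (log2 -0.07, adjusted p = 0.385). Between long-term KO and day 5, 7 of 9 members passed (4 higher, 3 lower) beside 66.6% of all genes (36.1% higher, 30.4% lower). The 3 comparisons share groups and are not independent of each other.

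Other genes also differed in long-term KO. Of 9 proliferation genes tested, 5 rose and 2 fell against untreated, beside 38.2% and 29.8% of all genes. *Mki67* was 34.7 to 38.2 FPKM untreated and 56.7 to 61.3 in long-term KO, while *Top2a* was 212 to 237 untreated and 180 to 184 in long-term KO. The summed level of 8 fibroblast markers was 1720 to 1730 FPKM untreated, 1410 to 1490 at day 5 and 1850 to 1920 in long-term KO. *Pdgfrb* was 4.77 to 5.13 FPKM untreated and 34.9 to 35.7 in long-term KO. *Col1a2*, *Twist1* and *Prrx1* were higher in long-term KO too, while *Col3a1*, *Fn1*, *Thy1* and *Vim* overlapped between these groups. None of the 8 was at 0 in any group. The part of these differences in the members' values was not tested.

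The siRNA experiment asked how *Dnmt1* knockdown, alone and with *Setdb1* deletion, changes expression. With siDnmt1 alone, 1 of 9 members passed, beside 7.92% of the 10685 genes tested: *Kdm4b* was 9.74 and 8.31 FPKM with siCtrl and 5.51 and 5.76 with siDnmt1 (log2 -0.67, SE 0.15, adjusted p = 0.0472, limma). This call was lost without any 1 of the 4 libraries and under 6 other settings. The other members gave these values without passing. *Kdm4a* was 26.6 and 26.3 against 19.9 and 18.9 FPKM (log2 -0.44, adjusted p = 0.136). *Ehmt1* was 13.6 and 13.2 against 10.4 and 10.4 FPKM (log2 -0.35, adjusted p = 0.0808), and *Ehmt2* 43.0 and 43.5 against 35.3 and 33.9 (log2 -0.32, adjusted p = 0.131). *Kdm3a* and *Kdm4c* had log2 differences of -0.33 and -0.29. In all, 7 of 9 members had a log2 difference below 0, with a median of -0.32, and the median of all genes was -0.09. The groups did not overlap for any of the 9 members, nor for 71.9% of all genes. *Suv39h1* (42.2 and 40.2 against 43.6 and 42.2 FPKM) and *Suv39h2* (7.64 and 7.38 against 7.01 and 7.10) moved by less than 0.1 on the log2 scale.

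**Figure D3:**
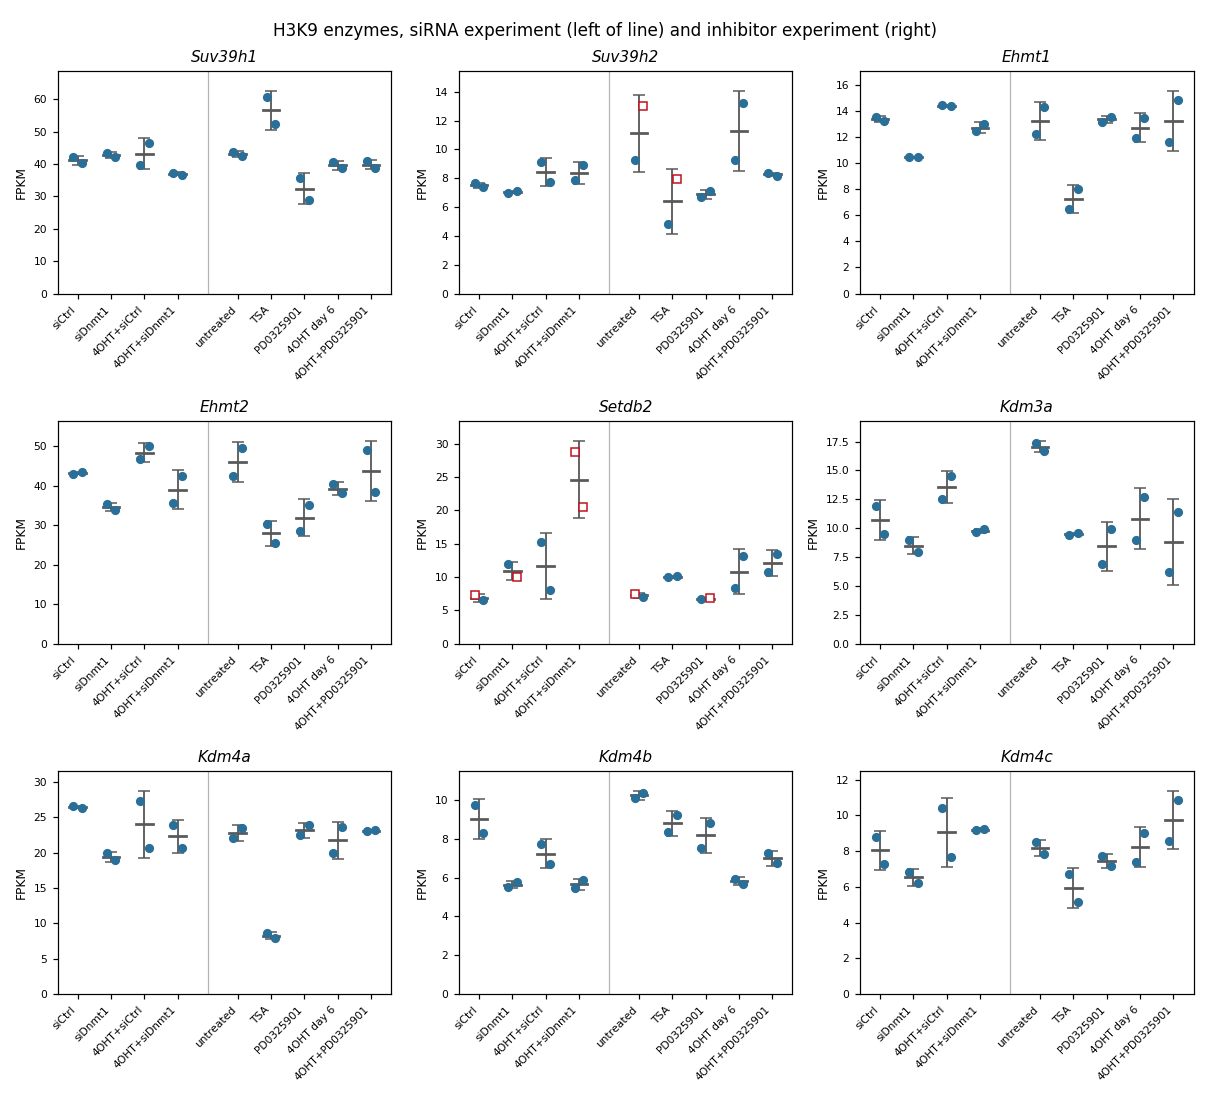
FPKM (y axis, from 0) of the 9 genes by group (x axis) in the siRNA experiment, left of the line, and the inhibitor experiment, right of it. Points are libraries, the bar is the mean and the error bar the SD (n = 2); open red squares are loci joined with, or running into, a neighbouring gene. *Kdm4a* drops to 8.60 and 7.90 with TSA, and *Setdb2* reaches 28.7 and 20.5 with 4OHT + siDnmt1.

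At day 6 after 4OHT with siCtrl, none of the 9 members passed, beside 13.7% of all genes. None had an unadjusted p under 0.05, against 3489 of the 10685 genes tested. Replicate 2, which stood apart, was singled out by its *Irf7* after the values were seen. *Setdb2* is known as interferon-inducible too, so leaving that library out is no test of *Setdb2*. *Setdb2* was 7.26 and 6.49 FPKM with siCtrl, 11.9 and 9.95 with siDnmt1, 15.2 and 8.11 with 4OHT + siCtrl, and 28.7 and 20.5 with 4OHT + siDnmt1. The lower 4OHT + siCtrl value is from the library with low *Irf7*. With both libraries the log2 difference of 4OHT + siCtrl from siCtrl was 0.69 (SE 0.31, limma adjusted p = 0.188). Replicate 1 alone gave 1.13 and replicate 2 alone 0.24. Between 4OHT + siDnmt1 and 4OHT + siCtrl the log2 difference was 1.12 (SE 0.31, limma adjusted p = 0.137), the widest of a member in this comparison. Without replicate 2 of 4OHT + siCtrl it was 0.67. The *Setdb2* locus was joined with *Phf11c* in both 4OHT + siDnmt1 libraries and apart from it in both 4OHT + siCtrl libraries. With the 2 genes summed in every library, the log2 difference between these groups was 1.41. This sum is without 4OHT + siCtrl replicate 1, which has no separate *Phf11c* value. Under that sum the library with low *Irf7* is the only one left in its group.

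**Figure D4:**
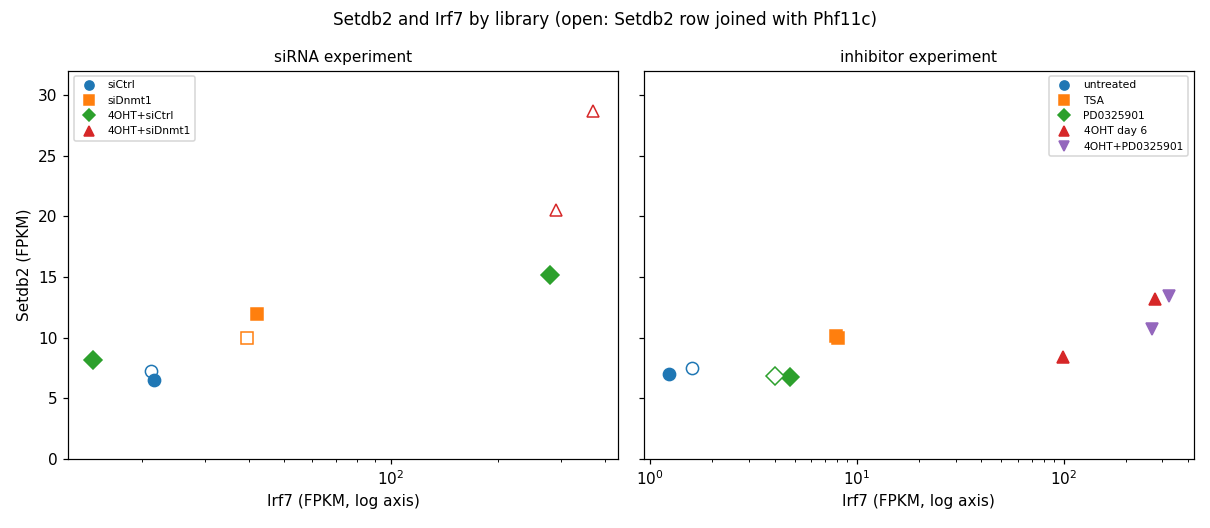
*Setdb2* (y axis, FPKM) against *Irf7* (x axis, FPKM, log axis) in each library of the siRNA experiment (left) and the inhibitor experiment (right). Symbols mark the groups, and open symbols are libraries whose *Setdb2* locus is joined with *Phf11c*. The total RNA libraries are not shown: there *Irf7* was higher at day 5 and in long-term KO, without a rise of the joined *Setdb2* locus. The library 4OHT + siCtrl replicate 2 lies at 14.6 *Irf7* and 8.11 *Setdb2*, beside the siCtrl libraries.

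None of the 9 members passed between 4OHT + siDnmt1 and 4OHT + siCtrl, beside 2.03% of all genes. An unadjusted p under 0.05 was found for 3 (*Ehmt2*, *Setdb2*, *Kdm3a*), and for 2091 of the 10685 genes tested. *Kdm3a* was 12.6 and 14.5 FPKM with 4OHT + siCtrl and 9.64 and 9.89 with 4OHT + siDnmt1 (log2 -0.46, adjusted p = 0.184, and -0.36 without 4OHT + siCtrl replicate 2). *Ehmt2* was 46.7 and 50.0 against 35.5 and 42.5 FPKM (log2 -0.31, adjusted p = 0.197, and -0.26 without it). The interaction of 4OHT and siDnmt1 tests whether the siRNA acts differently with and without *Setdb1* deletion. No member passed in it, where 0.197% of all genes did. No member had an unadjusted p under 0.05, against 1070 of the 10685 genes tested. Without 4OHT + siCtrl replicate 2 the interaction of *Setdb2* went from 0.46 to 0.01. In this experiment the summed level of 6 epithelial markers was 55.7 to 56.0 FPKM with siDnmt1 53.9 to 86.6 with 4OHT + siDnmt1, 1.18 to 12.6 with 4OHT + siCtrl and 0.677 to 1.05 with siCtrl, mostly from *Krt8* and *Krt18*, while *Epcam* stayed at or below 1.685 FPKM in every library. Their part in the members' values was not tested.

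In the inhibitor experiment, TSA gave the widest change of the members: 6 of 9 passed, 5 lower and 1 higher, beside 55.8% of the 11428 genes tested. The members' median log2 difference was -0.72, and that of all genes 0.10. Of all genes, 24.4% passed as lower and 31.4% as higher. Groups did not overlap for any of the 9 members, nor for 85.3% of all genes. *Kdm4a* was 22.0 and 23.6 FPKM in untreated cells and 8.60 and 7.90 with TSA, the only member that fell past 2-fold here, where 12.8% of all genes did (log2 -1.46, SE 0.12, adjusted p = 5.23e-05, limma). It passed under each of 13 alternatives. Its share of the KDM4 sum was 54.2 to 56.4% in untreated cells and 35.4 to 36.3% with TSA.

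Both *Ehmt* genes fell with TSA. *Ehmt1* was 12.2 and 14.3 FPKM untreated and 6.49 and 8.01 with TSA (log2 -0.86, SE 0.17, adjusted p = 0.00375). *Ehmt2* was 42.4 and 49.6 FPKM untreated and 30.2 and 25.6 with TSA (log2 -0.72, SE 0.16, adjusted p = 0.00712), and its call was lost without untreated replicate 2 or TSA replicate 2 (adjusted p = 0.0542 and 0.0576). The *Suv39h* genes went in opposite directions. *Suv39h1* was 43.7 and 42.5 FPKM untreated and 60.8 and 52.4 with TSA (log2 0.39, SE 0.12, adjusted p = 0.0277), a call lost without either untreated library, without TSA replicate 1 (log2 0.28, adjusted p = 0.142) and with median-ratio scaling (adjusted p = 0.0738). *Suv39h2* was 9.23 and 13.0 FPKM untreated and 4.81 and 7.98 with TSA (log2 -0.81, SE 0.28, adjusted p = 0.0407). The higher value of each group comes from a locus that runs into *Dclre1c*, and without these libraries the log2 difference was -0.93, which compares 1 library with 1. The call of *Suv39h2* was lost without untreated replicate 2 (log2 -0.57) or TSA replicate 1 (log2 -0.45). It was also lost with no low-value filter (limma adjusted p = 0.0534) and with only the compared groups fitted (limma adjusted p = 0.0917). *Kdm3a* was 17.4 and 16.7 FPKM untreated and 9.43 and 9.55 with TSA (log2 -0.84, adjusted p = 0.0493), and did not pass without any 1 of the 4 libraries. *Kdm4c* (8.51 and 7.85 against 6.71 and 5.16 FPKM, adjusted p = 0.0733), *Kdm4b* (10.1 and 10.4 against 8.35 and 9.26) and *Setdb2* (7.48 and 7.02 against 9.97 and 10.1, adjusted p = 0.103) did not pass. The *Setdb2* locus was joined with *Phf11c* in untreated replicate 1 and apart from it in both TSA libraries. *Setdb2* and *Phf11c* summed to 7.48 and 7.92 FPKM untreated and 12.6 and 12.9 with TSA.

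With TSA, 9 of 11 proliferation genes tested fell and none rose (median log2 -0.85 over the 11). Of all genes, 24.4% fell and 31.4% rose with TSA. The summed level of 8 haematopoietic markers was 62.1 to 68.0 FPKM with TSA and 5.60 to 6.06 in untreated cells, nearly all of it *Cd68*, while *Ptprc* was below 0.3 FPKM. The epithelial sum was 34.3 to 40.9 FPKM against 1.28 to 1.39, mostly *Epcam*. The part of these differences in the members' values was not tested.

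At day 6 after 4OHT in the same experiment, 1 of 9 members passed, beside 24.9% of all genes. *Kdm4b* was 10.1 and 10.4 FPKM in untreated cells and 5.96 and 5.70 after 4OHT, apart in all libraries (log2 -0.80, SE 0.14, adjusted p = 0.00736). The call was lost without either untreated library (adjusted p = 0.0541 and 0.0637), at log2 differences of -0.82 and -0.78. *Setdb2* was 8.39 and 13.2 FPKM after 4OHT against 7.48 and 7.02 (log2 0.53, adjusted p = 0.116). Its locus was joined with *Phf11c* in untreated replicate 1 and apart from it in both 4OHT libraries. *Setdb2* and *Phf11c* summed to 9.67 and 18.0 FPKM after 4OHT against 7.48 and 7.92. The higher library also had the higher *Irf7* (277 against 99.5 FPKM). Without replicate 1, which has the lower *Irf7*, the *Setdb2* difference was 0.85, and without replicate 2 it was 0.21. *Kdm3a* was 8.98 and 12.7 FPKM after 4OHT against 17.4 and 16.7 (log2 -0.67, adjusted p = 0.155). *Kdm4a* was 19.9 and 23.6 FPKM and overlapped untreated cells (log2 -0.07, adjusted p = 0.706).

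No member passed with PD0325901 alone, beside 13.7% of all genes. An unadjusted p under 0.05 was found for 4 members, and for 3323 of the 11428 genes tested. *Kdm3a* was 6.93 and 9.93 FPKM with the inhibitor (log2 -1.03, SE 0.31, adjusted p = 0.0672). *Suv39h1* was 35.7 and 29.0 FPKM (log2 -0.42, SE 0.12, adjusted p = 0.0642). Both passed when the replicate number was added as a block (limma adjusted p = 0.0313 each). *Ehmt2* was 28.6 and 35.2 (log2 -0.53, adjusted p = 0.076). These 3 were below both untreated libraries, as was *Suv39h2* (6.67 and 7.08 FPKM, adjusted p = 0.168). *Kdm4a* with 22.4 and 23.9 FPKM and *Ehmt1* with 13.1 and 13.5 overlapped untreated cells.

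When PD0325901 was added to 4OHT, no member passed against 4OHT alone, beside 6.98% of all genes. None had an unadjusted p under 0.05, against 2583 of the 11428 genes tested. The log2 differences ran from -0.42 (*Suv39h2*) to 0.26 (*Kdm4b*). In the interaction of 4OHT and PD0325901 no member passed (0.726% of all genes did). *Suv39h1*, *Ehmt2* and *Kdm4b* had an unadjusted p under 0.05, as had 1807 of the 11428 genes tested. Their limma adjusted p were 0.296, 0.231 and 0.223. All 9 interaction terms were above 0, with a median of 0.37 beside 0.10 for all genes, except that *Ehmt1* (-0.091 and -0.096) and *Kdm4a* (-0.055 and -0.016) were below 0 with median-ratio scaling and with quantile normalization. Leaving out 1 library took those of *Suv39h2* and *Setdb2* below 0 too. These terms share the same untreated libraries.

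**Figure D5:**
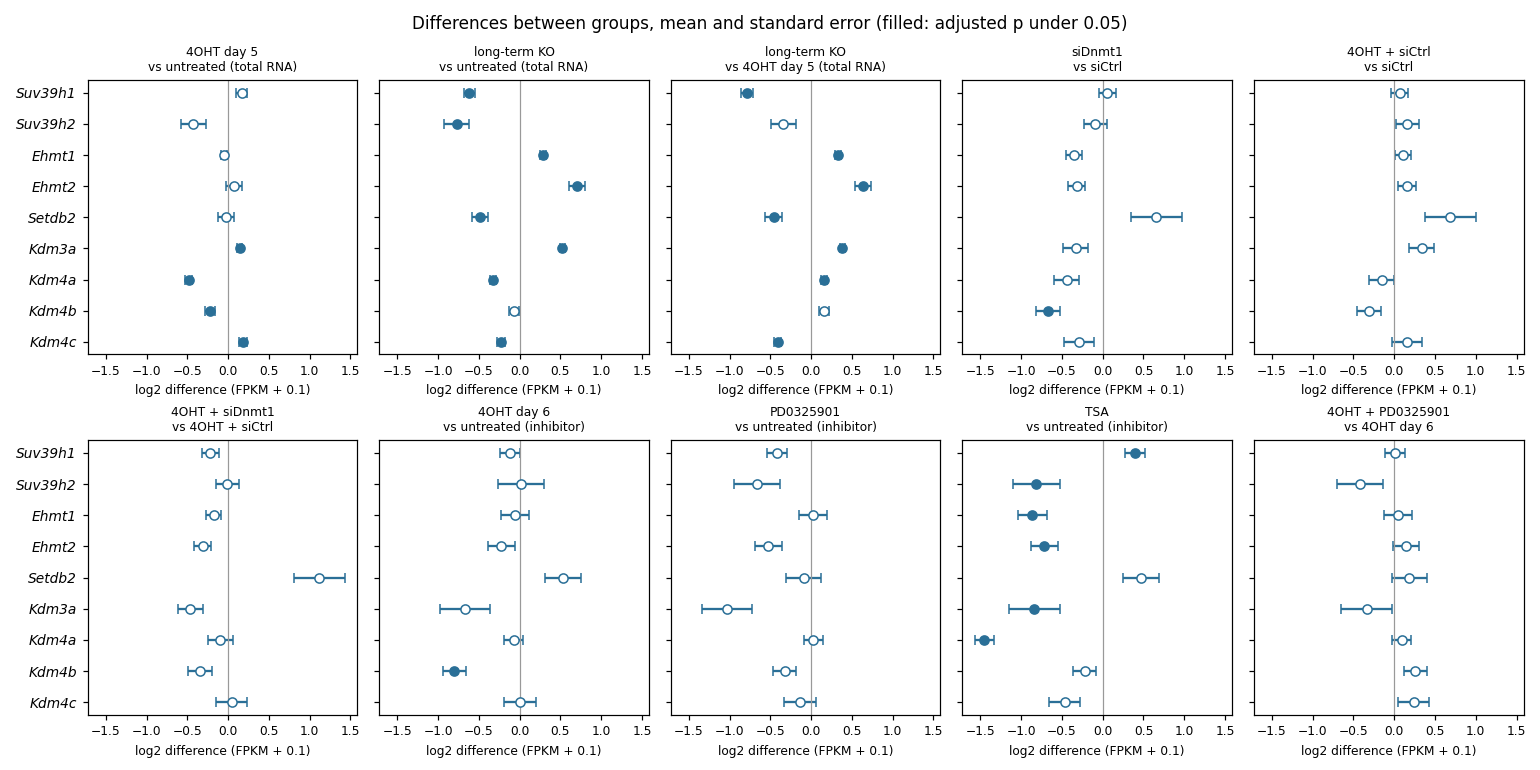
Log2 differences of FPKM + 0.1 (x axis) of the 9 genes (y axis) in 10 comparisons, with standard errors from limma. Filled points passed at an adjusted p under 0.05. The 3 total RNA comparisons hold 4, 8 and 7 filled points, TSA holds 6, and siDnmt1 and 4OHT day 6 hold 1 each, *Kdm4b* in both.

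The 3 comparisons of 4OHT with its own control can be set side by side, since no library is shared. *Kdm4b* had log2 differences of -0.22 at day 5 in total RNA, -0.31 at day 6 with siCtrl (adjusted p = 0.197) and -0.80 at day 6 in the inhibitor experiment, and its treated libraries were below all control libraries in each. Without 4OHT + siCtrl replicate 2 the siCtrl difference of *Kdm4b* was -0.21. *Kdm4a* fell at day 5 (-0.48), and gave -0.15 and -0.07 at day 6 with overlapping groups. Without that library the -0.15 turned to 0.05. *Setdb2* gave -0.03, 0.69 and 0.53, with 1.13 in place of 0.69 without that library and 0.24 with that library alone. Days, library types and handling differ between the experiments, and differences between them were not tested.

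Other genes of H3K9 methylation were taken from a list of 31, of which 24, 26 and 28 were tested in the 3 experiments. At day 5, 4 of 24 rose and 3 fell, beside 37.5% of all genes passing, and in long-term KO 12 rose and 3 fell against untreated, beside 68% (median log2 0.34 beside 0.07 for all genes). *Atf7ip*, which encodes a partner of Setdb1, passed as higher in the 3 comparisons of 4OHT: 8.50, 8.78 and 8.24 FPKM became 22.3, 23.8 and 25.3 at day 5 (log2 1.47, SE 0.06, adjusted p = 1.74e-06). It was 16.9, 17.2 and 19.0 in long-term KO (log2 1.04 against untreated). In the siRNA experiment it was 16.8 and 14.4 with siCtrl and 40.6 and 35.2 with 4OHT + siCtrl (log2 1.28, adjusted p = 0.00387), and in the inhibitor experiment 15.7 and 16.9 untreated and 25.0 and 35.9 after 4OHT (log2 0.87, adjusted p = 0.0293). The library with low *Irf7* was thus high in *Atf7ip*. *Cdyl2*, a chromodomain gene, fell from 2.33, 2.30 and 2.40 FPKM at day 5 to 0.989, 1.01 and 1.04 in long-term KO (log2 -1.14, adjusted p = 1.05e-06).

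With TSA, 4 of 28 rose and 9 fell, and 6 of those that fell did so past 2-fold. Of all genes, 31.4% rose, 24.4% fell and 12.8% fell past 2-fold, with 55.8% passing in all. The 6 were *Phf2*, an H3K9 demethylase gene (11.7 and 13.0 against 2.62 and 1.78 FPKM, log2 -2.46), *Mecom* (18.2 and 18.2 against 4.25 and 4.76, log2 -1.99), the H4K20 methyltransferase gene *Suv420h1* (14.2 and 13.3 against 3.95 and 3.91, log2 -1.78), the HP1 gene *Cbx5* (44.4 and 45.9 against 14.9 and 12.3, log2 -1.73), the KAP1 gene *Trim28* (89.5 and 90.8 against 32.9 and 28.4, log2 -1.56) and *Uhrf1*, which encodes a reader of H3K9 methylation (85.3 and 84.8 against 41.3 and 42.9, log2 -1.01). No untreated and TSA values of these 6 overlapped. By limma, none of the list passed with siDnmt1, with siDnmt1 added to 4OHT, with PD0325901 added to 4OHT or in either interaction.

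Genes with the most alike pattern were sought over the 9 groups of the siRNA and inhibitor experiments, as the correlation of group means centred within each experiment, among 10247 genes. These values are descriptions: with 9 points, groups of 1 experiment share a library type and handling. *Kdm4a* was most like *Zfp12* (r = 0.995) and *Nfya* (r = 0.991), *Ehmt1* most like *Gosr1* (r = 0.989) and *Eps15l1* (r = 0.983), and *Kdm4c* most like *Thumpd2* (r = 0.985). *Ehmt2* was most like *Ybx1* (r = 0.984), *Suv39h2* most like *Sf3b2* (r = 0.983), and *Setdb2* most like *Snx2* (r = 0.982). *Kdm4b*, *Kdm3a* and *Suv39h1* were most like *Tmem53* (r = 0.977), *Cep250* (r = 0.971) and *Arl6* (r = 0.959).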

How the data were processed

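RNA-seq of the *Setdb1* cKO iMEFs was analysed in 27 libraries of 3 experiments (9 total RNA, 8 siRNA, 10 inhibitor), grouped by their labels. For these libraries the authors used TopHat2 2.0.12 on mm9, keeping 1 position per read, and Cufflinks with RefSeq gene models. The authors deposited FPKM per locus with a 95% interval and no counts, so depth enters only through the intervals. Deposited tables of group FPKM, fold changes and p-values between groups were not used. Total RNA loci carry no names and were matched by position to genes of the named libraries, with at least 95% of a gene covered.

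The experiments were fitted separately, each with all its groups, using limma 3.58.1 (R 4.3.3) on log2(FPKM + 0.1) with trended variances and two-sided tests. P-values were adjusted by Benjamini-Hochberg over the genes with at least 1 FPKM in 3 (total RNA) or 2 libraries (8935, 10685 and 11428 genes). In all, 10 comparisons and 2 interactions were made. On simulated data, tested for 4OHT in the 3 experiments, 100, 75 and 75 of 100 genes changed by 1 on the log2 scale were recovered. Of 100 genes changed by 0.5, 92, 21 and 16 were recovered. The simulation changed 200 genes and gave genes of like level the same spread. In the data genes differ in spread and 3348, 1466 and 2846 passed, so these rates may not carry over. Other steps used Python 3.11.15.

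The members and lists were chosen with earlier results of these data known. The genes named are the 9 members, the targeted genes *Setdb1* and *Dnmt1*, genes of the list of 31 that passed with a 2-fold change, and for each member up to 2 genes of most alike pattern. *Irf7*, the neighbouring genes and the single marker genes were named after their values were seen. Alternatives were other pseudocounts (1 and 0.01), other low-value filters (none, or 5 FPKM), scaling by median ratios, quantile normalization, fits of the compared groups alone, a replicate block, leaving out each library, a 2-fold limit and, for total RNA, the single closest locus. After seeing the data, 2 were added, namely the sum of *Setdb2* and *Phf11c* and leaving out *Suv39h2* loci that run past the gene.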

Additional observations from a re-analysis of the deposited data

Results flagged for a closer look

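For 4 members, every 4OHT library moved one way from its control mean in one experiment and every 4OHT library the opposite way in another. None of these differences between experiments was tested, and days and library types differ between them. Values are mean log2 differences. *Suv39h1* was at 0.17 at day 5 in total RNA and at -0.12 at day 6 in the inhibitor experiment. *Suv39h2* was at -0.43 at day 5 in total RNA, where 2 untreated loci run into *Dclre1c*, and at 0.16 at day 6 with siCtrl. *Ehmt2* was at 0.0705 at day 5 in total RNA and 0.16 at day 6 with siCtrl, and at -0.23 at day 6 in the inhibitor experiment. *Kdm3a* was at 0.14 at day 5 in total RNA and 0.34 at day 6 with siCtrl, and at -0.67 at day 6 in the inhibitor experiment. Of these differences, only the one of *Kdm3a* at day 5 passed. Without 4OHT + siCtrl replicate 2, the library with low *Irf7*, the siCtrl values of *Suv39h2*, *Ehmt2* and *Kdm3a* were 0.28, 0.11 and 0.23.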

How the results depend on the processing

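Of the members' recomputed values, 1422 kept their direction and side of the threshold, 27 newly passed, 60 no longer passed and 56 turned their direction. None of the 56 passed before or after. With a 2-fold limit the members passing were 0 for day 5, for both long-term KO comparisons, for siDnmt1 and for 4OHT day 6, and 1 for TSA. Over all genes that limit left 306 calls at day 5, 1292 in long-term KO against untreated and 1148 against day 5. It left 513 for siDnmt1, 1266 for 4OHT day 6 and 3666 for TSA. For siDnmt1 the count of 1 became 0 with no filter, a 5 FPKM filter, median-ratio scaling, quantile normalization and the replicate block. It became 5 with only the compared groups fitted, where 3685 of the 10685 genes passed. The sum of *Setdb2* and *Phf11c* leaves out 4OHT + siCtrl replicate 1. With 1 library left in that group, its counts are not given. Quantile normalization gave 2 members for 4OHT day 6 and 1 for PD0325901, where 2875 and 1554 of the 11428 genes passed. The replicate block gave 2 for PD0325901 (*Suv39h1* and *Kdm3a*, each at limma adjusted p = 0.0313), where 1862 genes passed. The cause was not tested.

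Leaving out 1 library at a time gave 3 to 4 members at day 5, 8 to 8 in long-term KO against untreated and 7 to 7 against day 5. Of the 8935 genes tested, 2801 to 2982, 5747 to 5853 and 5561 to 5706 passed there. In the siRNA and inhibitor experiments it leaves 1 library in a group, so member counts are not given. Calls lost in that way are described above for siDnmt1, TSA and 4OHT day 6. Over all genes, 4OHT + siCtrl gave 1466 calls, and 2950 without replicate 2. For siDnmt1 the 846 calls became 88 to 122 with a library left out and 3685 with only the compared groups fitted. For siDnmt1 added to 4OHT, 217 calls became 83 to 2400, for 4OHT day 6, 2846 became 855 to 1863, and for PD0325901, 1569 became 375 to 1321.

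The replicate numbers were not taken as pairs, since no label ties a number to a shared culture or day. Deviations of same-numbered libraries correlated between -0.0335 and 0.116 in total RNA and between -0.068 and 0.0319 in the siRNA experiment. In the inhibitor experiment same-numbered PD0325901, 4OHT day 6 and 4OHT + PD0325901 libraries deviated together (0.206 to 0.253), a hint from the data and not from the design, while pairs with untreated or TSA lay between -0.0237 and 0.0357. With the replicate block, 525 genes passed for siDnmt1. With groups of 2, changes of 0.5 on the log2 scale were mostly missed on simulated data, so a member that did not pass is not shown to be unchanged.

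The differences that turned passed no test, and those of *Setdb1* and *Dnmt1* are given with the members'. With median-ratio scaling, the differences that turned were, for siDnmt1 *Suv39h2* (0.0014), for 4OHT + siCtrl *Suv39h1* (-0.0093) and *Dnmt1* (-0.043), for siDnmt1 added to 4OHT *Suv39h2* (0.0096) and *Setdb1* (0.0095), for the interaction of 4OHT and siDnmt1 *Ehmt2* (-0.065) and *Dnmt1* (-0.043), for PD0325901 added to 4OHT *Suv39h1* (-0.041) and *Ehmt1* (-0.00053), for the interaction of 4OHT and PD0325901 *Ehmt1* (-0.091), *Kdm4a* (-0.055) and *Dnmt1* (-0.12). With quantile normalization, the differences that turned were, for siDnmt1 *Suv39h2* (0.0198), for the interaction of 4OHT and siDnmt1 *Suv39h2* (-0.047), *Ehmt2* (-0.079) and *Dnmt1* (-0.16), for PD0325901 *Setdb2* (0.0403), for PD0325901 added to 4OHT *Suv39h1* (-0.034), for the interaction of 4OHT and PD0325901 *Ehmt1* (-0.096) and *Kdm4a* (-0.016). With 1 library left out at a time, the range crossed 0 in the siRNA and total RNA experiments for 4OHT day 5 *Setdb2* (-0.11 to 0.055), for 4OHT + siCtrl *Dnmt1* (-0.036 to 0.098), *Kdm4c* (-0.062 to 0.38), *Suv39h1* (-0.049 to 0.18), *Kdm4a* (-0.35 to 0.047) and *Setdb1* (-0.46 to 0.13), for siDnmt1 added to 4OHT *Suv39h2* (-0.13 to 0.11), *Kdm4a* (-0.30 to 0.10), *Setdb1* (-0.30 to 0.29) and *Kdm4c* (-0.18 to 0.26), for the interaction of 4OHT and siDnmt1 *Dnmt1* (-0.072 to 0.13), *Kdm3a* (-0.29 to 0.028), *Ehmt2* (-0.12 to 0.14), *Suv39h2* (-0.036 to 0.20) and *Setdb1* (-0.054 to 0.54). It did so in the inhibitor experiment for 4OHT day 6 *Suv39h2* (-0.24 to 0.27), *Ehmt1* (-0.17 to 0.057), *Kdm4c* (-0.14 to 0.14) and *Kdm4a* (-0.19 to 0.052), for PD0325901 *Ehmt1* (-0.095 to 0.13) and *Kdm4a* (-0.024 to 0.073), for TSA *Setdb1* (-0.12 to 0.083), for PD0325901 added to 4OHT *Ehmt1* (-0.13 to 0.22), *Setdb2* (-0.14 to 0.51), *Kdm4a* (-0.031 to 0.22), *Suv39h1* (-0.026 to 0.044), *Ehmt2* (-0.034 to 0.32), *Kdm3a* (-0.78 to 0.097) and *Setdb1* (-5.76 to 0), for the interaction of 4OHT and PD0325901 *Ehmt1* (-0.14 to 0.21), *Dnmt1* (-0.11 to 0.12), *Suv39h2* (-0.0066 to 0.50), *Setdb2* (-0.042 to 0.60), *Kdm4a* (-0.055 to 0.19) and *Setdb1* (-4.98 to 0.78).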
